A study of Homo sapiens with 6 samples.

Results

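The 59 listed genes of human chromosome 18 were lower, as a body, in the libraries labelled RN7SK-KO than in the libraries labelled control. The median log2 fold change (RN7SK-KO over control) was -0.90, a level 1.86-fold lower, beside -0.01 over all tested genes. The size of the shift differed along the chromosome, which is a description and was not tested. Genes of the short (p) arm had a median log2 fold change of -0.41 and genes of the long (q) arm one of -1.03. This gap of 0.62 was 0.24 among the 20 genes with lengths within 1% in both groups. With lengths entered for all 58 it was 0.68. Chromosome 18 genes outside the list did not keep this order in every window of 10 Mb. Their median was -0.57 at 0 to 10 Mb on the p arm and -0.14 at 50 to 60 Mb on the q arm. Among the lowest were NEDD4L, RNF138, TUBB6, DSC2 and MYL12A, while EMILIN2 and CABLES1 were 5.71-fold and 5.54-fold higher from counts, or 3.78-fold and 5.06-fold with gene lengths taken into account.

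The genes were given as a list of symbols and looked up in the deposited count tables. All 59 were found, among 237 genes of the tables that the RefSeq annotation places on chromosome 18 and 16779 genes in all. The genes were selected on position and on this comparison's own fold changes, which were known when the list was drawn up. The fold changes, arms and counts below are therefore a description of these libraries and carry no test. Standard errors (SE) come from the fit, which pools the spread between libraries over genes, and show no other spread. Of the 59 genes, 58 had enough counts to enter the fit. EPB41L3, a membrane skeleton protein gene, did not: it had 0, 1 and 0 counts in the RN7SK-KO libraries and 0, 0 and 0 in the control libraries.

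RNA-seq was done on 6 libraries of A549, a human lung adenocarcinoma cell line: 3 with the genotype given as RN7SK knockout and 3 as WT. RN7SK encodes 7SK, a small nuclear RNA that keeps the elongation kinase P-TEFb inactive. The labels name no knockout method, clone, passage or batch, and no treatment. The comparison asks which mRNAs differ between the libraries labelled RN7SK-KO and those labelled control.

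A few facts of the whole series touch every value below. Total counts over all 16779 genes of the tables were between 16018260 and 18488790 in the RN7SK-KO libraries and between 18612303 and 19357144 in the control libraries. The tables had 0 rows for RN7SK, so the target itself could not be used to check the labels. CDKN2A, a cell cycle inhibitor gene that A549 cells are known to lack, had 0, 1 and 2 counts in the RN7SK-KO libraries, against 963, 1005 and 923 in the control libraries. CDKN2B beside it had 0, 1 and 0 counts against 216, 241 and 238. The control libraries thus go against the cell line of their label, and the groups are named here by their labels only. Among cell type markers, the summed level of 9 endothelial genes was 4.19 to 4.92 CPM (counts scaled to a fixed library total) in the RN7SK-KO libraries and 162.5 to 175.2 CPM in the control libraries. Most of that sum came from ESAM and ENG. CDH5 had 15 counts over the RN7SK-KO libraries and 94 over the control libraries, and ROBO4 had 7 and 108. KDR had 32 and 5, TEK 7 and 1, PECAM1 7 and 2, VWF 8 and 0, and TIE1 0 and 0. The summed epithelial markers were 4685 to 4775 CPM and 2796 to 2968 CPM, RN7SK-KO libraries first here and below. Nearly all of that sum came from KRT8 and KRT18. CDH1 had 8182 and 1657 counts, CLDN7 19 and 5, KRT19 4 and 3, EPCAM 23 and 30, and CLDN4 33 and 83. Summed blood cell markers were 54.6 to 59.0 CPM and 34.5 to 38.1 CPM, mostly from CD68. Those of fibroblasts were 22.0 to 24.3 CPM and 4.92 to 5.97 CPM, mostly from COL1A1 and TWIST2, while LUM had 7 and 22 counts. Of the alveolar and airway list, 9 of 10 genes were in the tables, at 108.8 to 120.4 CPM in RN7SK-KO and 93.1 to 99.1 CPM in control libraries, with SFTPA1 and SFTPB at 0 counts in both groups. The part of these differences in the chromosome 18 values was not tested.

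Chromosome 18 is a small chromosome that holds few genes for its size. A short p arm and a longer q arm meet at the centromere. The genes along it do not form a pathway: neighbours code for parts of the spliceosome, the proteasome, desmosomes, the nuclear pore, the centrosome and the cytoskeleton. What they share is position, so they are described here first by place and then by role.

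Upstream sequences are shown for 3 places where neighbouring members can be set beside each other: a pair of duplicated genes (MYL12A and MYL12B), and head-to-head pairs whose starts lie close together and point apart (CEP76 with PSMG2, and SLC39A6 with ELP2). Each is the 250 bases before a gene's start in RefSeq's GRCh38.p14 table, 5′ to 3′ on the gene's own strand. Capitals mark the GC box, GGGCGG read on either strand. The other motifs searched for, named after the sequences, have no match in the stretches printed. MYL12A is chr18:3247232-3247481 and MYL12B chr18:3261883-3262132, both on the plus strand. PSMG2 is chr18:12702792-12703041 on the plus strand. SLC39A6 is chr18:36129341-36129590 on the minus strand and ELP2 chr18:36129649-36129898 on the plus strand.
MYL12A: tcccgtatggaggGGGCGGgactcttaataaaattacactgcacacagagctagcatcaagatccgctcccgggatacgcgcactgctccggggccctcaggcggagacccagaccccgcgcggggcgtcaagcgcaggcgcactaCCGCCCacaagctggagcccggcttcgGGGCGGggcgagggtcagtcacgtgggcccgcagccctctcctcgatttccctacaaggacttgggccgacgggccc
MYL12B: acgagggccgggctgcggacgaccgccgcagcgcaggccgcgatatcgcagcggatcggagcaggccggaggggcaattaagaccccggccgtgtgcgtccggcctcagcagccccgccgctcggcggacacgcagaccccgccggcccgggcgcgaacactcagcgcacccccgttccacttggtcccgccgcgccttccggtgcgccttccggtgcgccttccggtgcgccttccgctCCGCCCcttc
PSMG2: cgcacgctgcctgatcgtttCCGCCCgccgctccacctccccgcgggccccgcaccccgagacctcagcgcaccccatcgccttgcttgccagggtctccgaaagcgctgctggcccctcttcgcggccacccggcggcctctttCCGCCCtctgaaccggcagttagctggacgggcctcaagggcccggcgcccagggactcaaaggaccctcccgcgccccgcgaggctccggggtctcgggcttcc
SLC39A6: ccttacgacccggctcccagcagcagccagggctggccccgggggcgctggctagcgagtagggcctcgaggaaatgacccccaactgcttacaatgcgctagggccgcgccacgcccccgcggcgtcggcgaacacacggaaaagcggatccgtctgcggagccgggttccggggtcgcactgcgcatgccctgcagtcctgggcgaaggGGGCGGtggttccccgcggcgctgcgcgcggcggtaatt
ELP2: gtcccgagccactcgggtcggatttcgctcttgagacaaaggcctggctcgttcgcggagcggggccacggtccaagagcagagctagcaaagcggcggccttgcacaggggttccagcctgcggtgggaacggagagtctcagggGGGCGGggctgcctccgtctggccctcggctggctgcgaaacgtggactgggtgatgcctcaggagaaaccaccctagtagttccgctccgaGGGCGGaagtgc

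The table held an entry for 53 of the 59 members. The others are RAB12, IMPA2, RNMT, ESCO1, SNRPD1 and TRAPPC8. Taking the first start listed for each gene and both strands, GGGCGG was found in 38 of the 53 members (71.7%) and in 61.3% of the 13418 genes of the tables with an entry. CCAAT was found in 32.1% of members and 34.3% of those genes, TATAAA in 3.77% and 7.17%, and the CArG box in 0 of 53 members and 1.04%. The median number of CG pairs in the 250 bases was 24 in members and 19 in all. Over the 209 chromosome 18 genes with an entry, members among them, GGGCGG was found in 60.8% and CCAAT in 25.8%. TATAAA was found in 5.74% of them and the CArG box in 0.957%, and their median number of CG pairs was 21. No difference between these sets was tested. All of the shares are matches of letters, not measured sites.

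Counts passing the edgeR quasi-likelihood test (Benjamini-Hochberg adjusted p under 0.05 over 12929 genes) were 45 lower and 5 higher among the 58 members, with 8 that did not pass. Over all tested genes 43.0% were lower and 42.0% higher. In either direction 50 passed, where the share over all tested genes was 85.0%. At least 2-fold, 22 members were lower and 2 higher, where the shares over all tested genes were 14.1% and 19.5%. For 46 members every RN7SK-KO library lay below every control library, as for 43.2% of all tested genes, and for 6 every one lay above, as for 42.4%. Since the list was made with this comparison in view, nothing is read from these counts. The counts by arm and by role below stand beside the same shares over all tested genes, 43.0% lower and 42.0% higher, and nothing is read from them either. In RNA from whole cultures, less mRNA in each cell and fewer cells that make it cannot be told apart.

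The 59 members together took 0.352%, 0.343% and 0.352% of all counts in the RN7SK-KO libraries, against 0.634%, 0.625% and 0.616% in the control libraries. All 237 chromosome 18 genes took 0.780% ± 0.009 (SD, n = 3) in RN7SK-KO and 1.28% ± 0.016 (n = 3) in control libraries. The groups did not overlap in either share, and libraries of a group lay close to each other.

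The plot of members in chromosome order shows the shift from end to end. Here the arms are split at 18 Mb, inside the centromere region, which leaves 29 tested members on each. On the p arm 20 were lower, 4 higher and 5 did not pass, and on the q arm 25 were lower, 1 was higher and 3 did not pass. The middle 50% of log2 fold changes ran between -0.99 and -0.10 on the p arm and between -1.19 and -0.56 on the q arm. Taking each RN7SK-KO library against the mean of the controls, the p arm medians were -0.45, -0.40 and -0.46 and the q arm medians -0.96, -1.05 and -1.09. In each of the 3 libraries the q arm lay lower. The difference, 0.62 in the fit, had an SD of 0.081 between these 3 libraries, each set against the same control mean. That SD leaves out the spread between control libraries and between genes. The SD between genes was 0.87 on the p arm and 0.84 on the q arm.

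**Figure D1:**
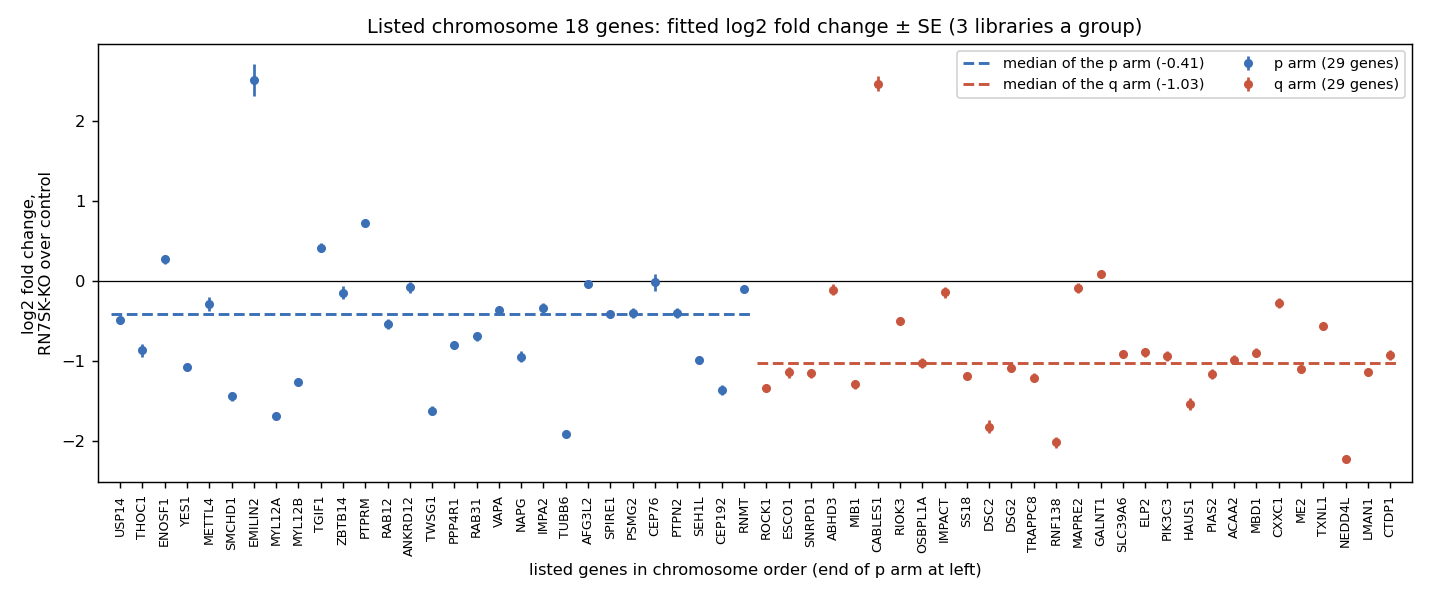
Fitted log2 fold change (RN7SK-KO over control) ± SE of the 58 tested members, in order along the chromosome from the end of the p arm. Dashed lines are the arm medians, -0.41 for the p arm and -1.03 for the q arm. Points of both arms scatter far more widely than their error bars, and EMILIN2 and CABLES1 stand above 2.

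In windows of 10 Mb, counted from the end of the p arm, the first 2 windows held the p arm members. Their member medians were -0.52 (18 genes) and -0.40 (11 genes). The 4 windows that followed on the q arm had medians of -1.09 (10 genes), -1.003 (8), -1.08 (4) and -1.004 (6). From counts, these 4 q arm windows spanned 0.084 and all lay below the p arm windows. With gene lengths as an offset, as set out below, they had medians of -0.90, -1.11, -1.28 and -1.66, a span of 0.75, and the p arm windows had -0.67 and -0.39. CTDP1 was the 1 member beyond the sixth window, near the end of the q arm, with a log2 fold change of -0.93.

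The gene models behind the tables differed between the groups. The length that the authors divided by can be recovered from count and FPKM, a count divided by gene length and depth, and it differed between the groups for most genes. Only 20 of 58 members had lengths within 1% of each other, as had 32.3% of all genes with a length in both groups. Among those 20 the median was -0.92, with -0.70 for 9 p arm and -0.94 for 11 q arm genes, so the arms were 0.24 apart and not 0.62. Leaving genes out also changes which genes are compared, and these cannot be told apart. When all 58 members were kept and those lengths entered as an offset, the arm medians were -0.40 and -1.07, which is 0.68 apart.

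The other chromosome 18 genes of the tables were described in the same windows. They come from the same libraries and are what was left after the members were chosen with this comparison known. They are therefore no independent check. Of 178, 117 were tested, with a median of -0.62. Of these, 74 (63.2%) were lower, 27 (23.1%) higher and 16 did not pass, where 43.0% and 42.0% of all tested genes were lower and higher. Their p arm median was -0.15 over 14 genes and their q arm median -0.75 over 103 genes. The windows were less alike than in the members. The second window had a median of -0.08 and the sixth one of -0.14, where the members had -0.40 and -1.004. The lowest was the seventh window, which holds no member: its 17 genes, among them BCL2, had a median of -1.48. Over all 175 tested chromosome 18 genes, window medians spanned 1.18 log2 units, between -1.48 and -0.31, against 0.69 over the members.

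**Figure D2:**
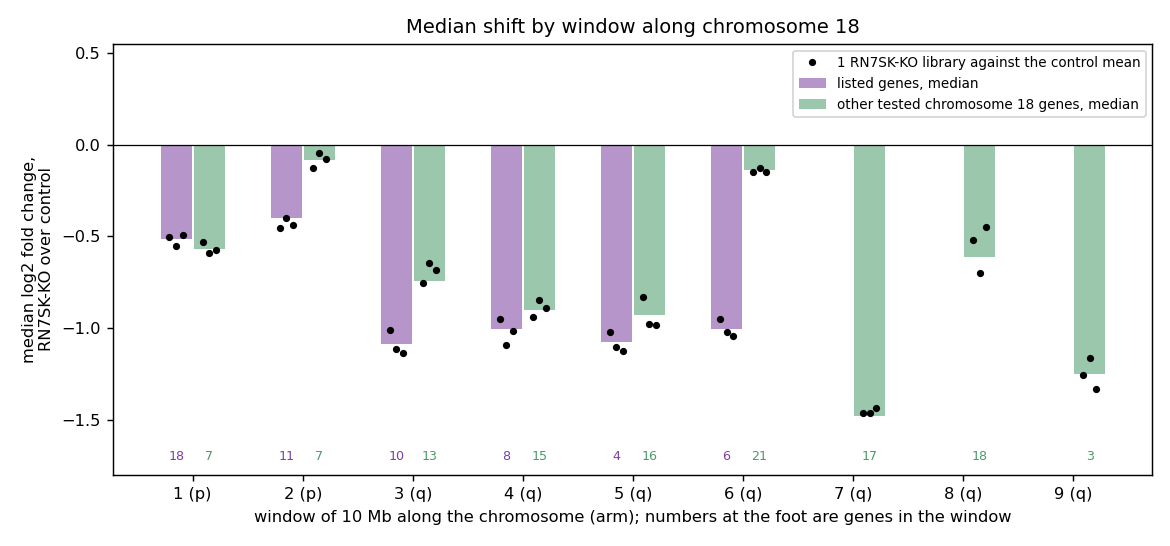
Median log2 fold change (RN7SK-KO over control) in windows of 10 Mb along chromosome 18 for members and for the other tested genes, where a window holds at least 3. Dots are the medians of single RN7SK-KO libraries against the control mean. Member medians are near -0.5 and -0.4 on the p arm and near -1 on the q arm; the other genes vary more between windows.

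Among 23 chromosomes, chromosome 18 had the second lowest median, -0.70 over 175 tested genes. Chromosome 21 had -0.73 over 119 genes, and chromosomes 6 and 1 followed at -0.33 and -0.27. At the other end chromosome 8 stood at 0.39. On chromosome 18, 68.0% of tested genes were lower and 18.3% higher, beside 43.0% and 42.0% over all tested genes. The range of window medians on chromosome 18, 1.18, was the tenth widest, over windows with at least 5 genes. The number of windows was unlike, 8 on chromosome 18 but 25 on chromosome 2 and 5 on chromosome 21, so this rank does not compare like with like. Chromosome 13, the only other with 8 windows, spanned 0.69, while chromosome 20 spanned 1.19 over 7. These are descriptions from 1 comparison, and whether chromosome 18 differs from the others was not tested.

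**Figure D3:**
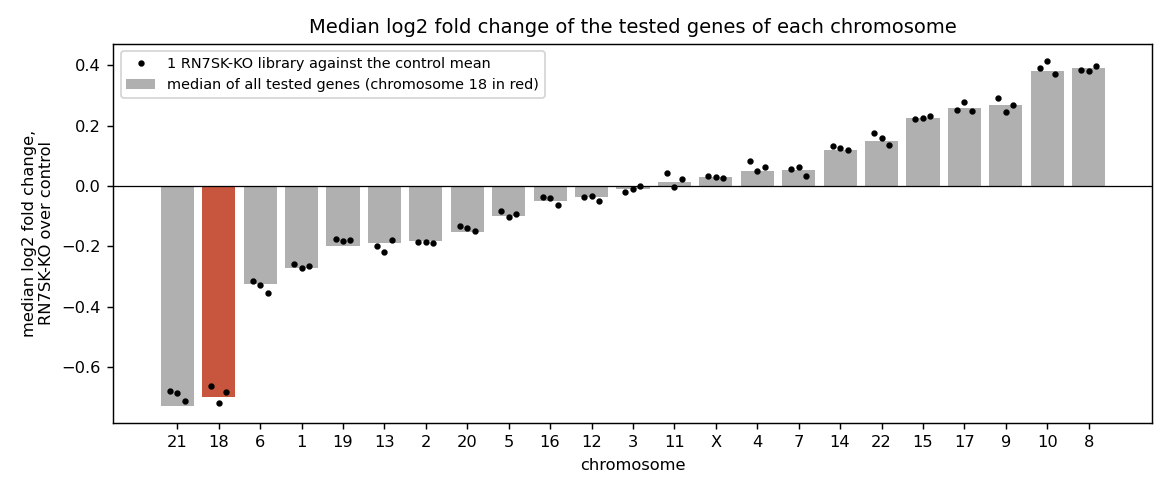
Median log2 fold change (RN7SK-KO over control) of the tested genes of each chromosome, sorted, with the medians of single RN7SK-KO libraries against the control mean as dots. Chromosome 18, in red, is at -0.70, beside chromosome 21 at -0.73; all other medians lie between -0.33 and 0.39.

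Members varied widely in value along the chromosome, and the part of position in this was not tested. The SD of log2 fold changes was 0.87 over the members, while the median SE of a single gene was 0.06. Adjacent members in the list differed by a median of 0.64 log2 units, and any 2 members by 0.70. Adjacent members can lie far apart with other genes between them, such as LMAN1 and CTDP1 at 20320 kb. Of 57 adjacent pairs, 21 (36.8%) were more than 1 log2 unit apart, as were 530 (32.1%) of the 1653 pairs of any 2 members. The widest pair was EMILIN2 and MYL12A, at 4.21, which are next to each other in the list but 331.5 kb apart. EMILIN2 differed from SMCHD1, the member on its other side, by 3.96.

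The head-to-head pairs named above, with starts close together, differed less from counts than the median adjacent pair. SLC39A6 and ELP2 differed by 0.02 log2 units and PSMG2 and CEP76 by 0.38. Not every close pair did: ABHD3 and MIB1, with 0.142 kb between their annotated spans, differed by 1.19, at -0.11 and -1.30. SLC39A6, a zinc importer gene, and ELP2, of the Elongator complex, start 558 bases apart. SLC39A6 had 97.6, 97.8 and 95.0 CPM in RN7SK-KO and 181.0, 188.2 and 179.0 CPM in control libraries. ELP2 had 50.3, 43.9 and 47.1 CPM and 86.2, 88.7 and 88.1 CPM. In each the groups were clear of one another, and the log2 fold changes were -0.92 ± 0.046 and -0.90 ± 0.057. The likeness depends on the scale: with the length offset SLC39A6 came to -0.97 and ELP2 to -1.47. The lengths of ELP2 were 8627 bases in RN7SK-KO and 6017 in control. For CEP76, a centriolar protein gene, and PSMG2, a proteasome assembly chaperone gene, the closest of their listed starts are 264 bases apart, and 236 of the 250 bases shown for PSMG2 also lie before CEP76. PSMG2 had 38.9, 38.7 and 36.0 CPM in RN7SK-KO and 51.7, 51.9 and 46.5 CPM in control libraries, a log2 fold change of -0.40 ± 0.064. CEP76 had 13.4, 13.5 and 12.6 CPM against 14.6, 13.6 and 11.9 CPM; its groups overlapped and its log2 fold change was -0.02 ± 0.101. CEP76 lies wholly within the annotated span of PSMG2 on the opposite strand. At their ends SPIRE1 overlaps PSMG2, USP14 overlaps THOC1, and TUBB6 overlaps AFG3L2. Such genes could exchange reads where counting ignored strand, which is not given in the sources used here.

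The contractile genes were all 4 lower, with a median of -1.30. MYL12A (chr18:3247482-3256237) and MYL12B (chr18:3262133-3278461) lie next to each other and encode near-identical regulatory light chains of non-muscle myosin, which turn on contraction when phosphorylated. MYL12A had 134.8, 129.7 and 133.2 CPM in RN7SK-KO libraries and 421.6, 441.6 and 421.5 CPM in control libraries. MYL12B had 194.8, 189.1 and 182.1 CPM against 439.4, 483.4 and 433.9 CPM. For both genes every RN7SK-KO library was well below every control library. MYL12A fell by 1.69 ± 0.044 on the log2 scale and MYL12B by 1.26 ± 0.046, and reads that match both could have been split between them. ROCK1, a kinase that keeps these light chains phosphorylated, fell by 1.34 ± 0.052, with 67.9, 62.7 and 71.3 CPM in RN7SK-KO and 174.8, 172.3 and 163.5 CPM in control libraries. SPIRE1, an actin nucleator, fell by 0.41 ± 0.054.

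Of 6 genes of the centrosome, spindle and nuclear pore, 4 were lower, 0 higher and 2 did not pass (median -1.18). TUBB6, a beta-tubulin, had 64.2, 69.1 and 64.4 CPM in RN7SK-KO libraries and 239.3, 250.9 and 254.0 CPM in control libraries. HAUS1, a subunit of augmin, which branches spindle microtubules, had 17.96, 18.1 and 18.2 CPM against 53.2, 58.0 and 46.5 CPM. Both were far apart between the groups and close within the RN7SK-KO libraries: TUBB6 fell by 1.91 ± 0.049 and HAUS1 by 1.54 ± 0.076. The centrosome scaffold CEP192 fell by 1.37 ± 0.068 and the nuclear pore subunit SEH1L beside it by 0.99 ± 0.053. MAPRE2, which binds growing microtubule ends, had 50.2, 48.2 and 45.3 CPM against 50.9, 47.6 and 54.7 CPM. It overlapped between the groups, as CEP76 did, and had a log2 fold change of -0.09 ± 0.063.

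In the adhesion and matrix group of 4, EPB41L3 was not tested, 2 were lower and 1 was higher. DSC2 and DSG2 encode a desmocollin and a desmoglein, the cadherins that join cells at desmosomes. DSC2 had 9.36, 10.5 and 8.92 CPM in RN7SK-KO libraries and 34.5, 32.6 and 34.8 CPM in control libraries. DSG2 had 120.5, 106.1 and 113.0 CPM against 253.7, 222.5 and 246.9 CPM. Both pairs of groups were separate, with falls of 1.83 ± 0.085 and 1.09 ± 0.052. Here the lengths matter: DSC2 came to -3.11 with the offset (12408 bases in RN7SK-KO, 5285 in control) and DSG2 to -0.67 (4227 and 5889 bases). EMILIN2, a glycoprotein of elastic matrix, went the other way. It had 5.92, 5.68 and 6.64 CPM in RN7SK-KO libraries and 1.08, 1.10 and 0.993 CPM in control libraries, a rise of 5.71-fold from counts (log2 fold change 2.51 ± 0.203). With the offset it was 3.78-fold (1.92; 6185 bases in RN7SK-KO, 4250 in control), and on log2(FPKM + 0.1) the difference was 1.65. Its libraries did not overlap between the groups, and it had the fewest counts of the tested members.

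**Figure D4:**
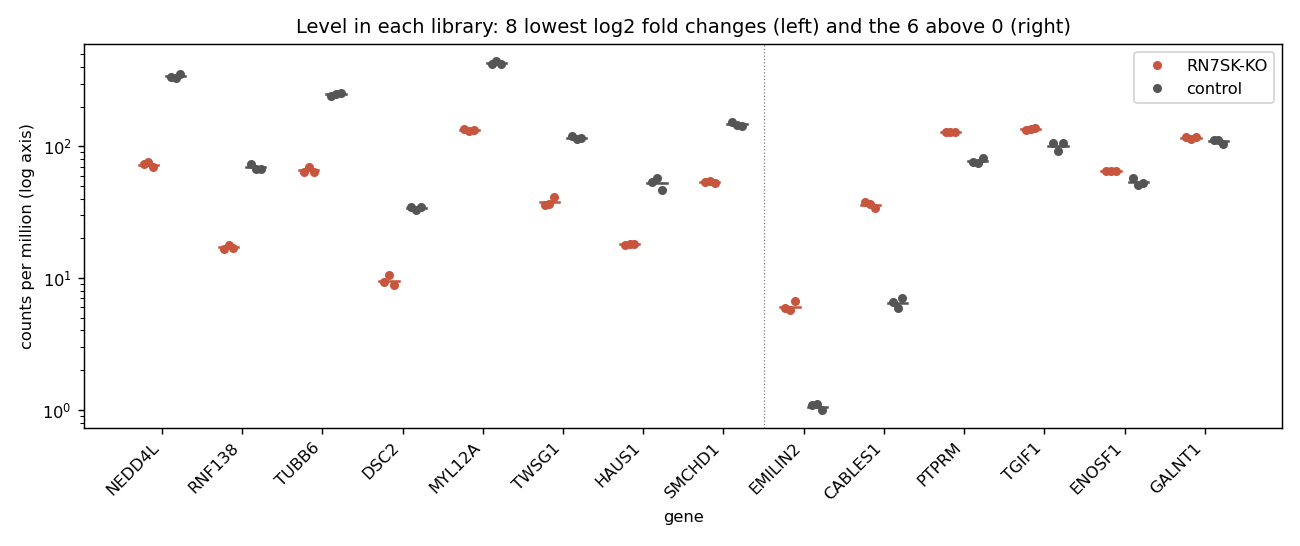
CPM in each library (dots, log axis) and group means (bars) for the 8 members with the lowest log2 fold changes and the 6 above 0, RN7SK-KO in red and control in grey. The groups are apart for each gene shown, widely for NEDD4L, RNF138, EMILIN2 and CABLES1 and narrowly for GALNT1.

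Of 7 genes of ubiquitin, SUMO and protein quality control, 6 were lower, 0 higher and 1 did not pass (median -1.17). NEDD4L, a ubiquitin ligase known for removing the epithelial sodium channel, had 73.0, 75.6 and 69.8 CPM in RN7SK-KO libraries and 337.9, 328.8 and 355.9 CPM in control libraries. RNF138, a ubiquitin ligase of DNA break repair, had 16.6, 17.7 and 17.04 CPM against 73.0, 67.3 and 67.8 CPM. These were the lowest log2 fold changes in the list, -2.23 ± 0.048 and -2.02 ± 0.067, which are 4.68-fold and 4.06-fold lower levels. The recovered lengths of NEDD4L, 11628 and 11621 bases, were within 1%. MIB1, which ubiquitinates Notch ligands, fell by 1.298 ± 0.060, or to -0.74 with the length offset, and the SUMO ligase PIAS2 by 1.17 ± 0.066. USP14, the deubiquitinase of the proteasome, and PSMG2 fell by 0.49 ± 0.047 and 0.40 ± 0.064. AFG3L2, a protease of the mitochondrial inner membrane, had 106.7, 106.8 and 107.4 CPM against 112.3, 107.6 and 109.1 CPM. It was the nearest to 0 after CEP76, at -0.04 ± 0.048, and did not pass although its RN7SK-KO libraries were all below the controls.

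All 8 genes of membrane traffic were lower, with a median of -0.94. They ran from VAPA, which ties the endoplasmic reticulum to other membranes, at -0.36 ± 0.045 to TRAPPC8, of the vesicle tethering complex TRAPP, at -1.21 ± 0.056. LMAN1, the cargo receptor that carries glycoproteins out of the endoplasmic reticulum, fell by 1.14 ± 0.049, with 131.9, 118.5 and 131.9 CPM in RN7SK-KO and 297.1, 276.2 and 268.2 CPM in control libraries. The sterol-binding protein gene OSBPL1A fell by 1.03 ± 0.064. NAPG, which helps recycle fusion complexes, fell by 0.95 ± 0.070, and PIK3C3, the lipid kinase of autophagy and endosomes, by 0.94 ± 0.066. The small GTPase genes RAB31 and RAB12 fell by 0.70 ± 0.058 and 0.54 ± 0.067. VAPA had a positive value of 0.40 with the length offset, where its lengths of 4368 bases in RN7SK-KO and 7712 in control enter, so its direction depends on the scale.

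Of 6 genes of RNA synthesis and processing, 5 were lower and 1 did not pass (median -0.91). SS18, of the BAF chromatin remodeller and counted here, fell by 1.19 ± 0.047, and SNRPD1, a core protein of the spliceosomal snRNPs, by 1.16 ± 0.053. SNRPD1 had 68.1, 64.4 and 64.2 CPM in RN7SK-KO and 145.0, 156.3 and 138.4 CPM in control libraries. Its recovered length was 4858 bases in RN7SK-KO and 1630 in control, and with the offset it came to -2.79. CTDP1, the phosphatase that takes phosphate off the tail of RNA polymerase II, fell by 0.93 ± 0.064, ELP2 by 0.90 and THOC1, of the mRNA export complex THO, by 0.87 ± 0.079. RNMT, which methylates the mRNA cap, had 78.6, 79.8 and 87.5 CPM against 91.3, 82.2 and 90.6 CPM. Its groups overlapped, and its log2 fold change was -0.10 ± 0.055.

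Chromatin and transcription factor genes were mixed: of 8, 5 were lower, 1 was higher and 2 did not pass (median -0.29). SMCHD1, an SMC-like protein that keeps silenced genes off, had 54.0, 54.6 and 53.0 CPM in RN7SK-KO libraries and 152.3, 146.1 and 142.4 CPM in control libraries. It fell by 1.45 ± 0.051. METTL4, an adenine methyltransferase gene and the member before SMCHD1 in the list, fell by 0.29 ± 0.089. NDC80, which is no member, lies between them and was at -2.15 ± 0.073. The cohesin acetyltransferase ESCO1 fell by 1.14 ± 0.069. MBD1 and CXXC1, which bind methylated and unmethylated CpG and lie side by side, fell by 0.90 ± 0.056 and 0.28 ± 0.057. With the length offset they came to -0.35 and 0.0007. TGIF1, a homeodomain corepressor of TGF-beta signalling, had 132.0, 134.8 and 139.0 CPM against 105.3, 92.7 and 106.1 CPM, apart in all libraries, and rose by 0.42 ± 0.052. ZBTB14 was at -0.15 ± 0.085. ANKRD12 had 31.3, 30.4 and 30.4 CPM against 34.3, 30.0 and 33.1 CPM, an overlap, and was at -0.08 ± 0.069 from counts but at 0.24 with the offset.

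Of 8 genes of kinases, phosphatases and signalling, 6 were lower and 2 higher (median -0.45). TWSG1, a secreted modulator of BMP, had 36.0, 36.5 and 41.0 CPM in RN7SK-KO libraries and 120.7, 113.2 and 116.0 CPM in control libraries, a fall of 1.63 ± 0.058. The Src family kinase YES1 fell by 1.08 ± 0.053, the protein phosphatase 4 subunit PPP4R1 by 0.81 ± 0.049, the atypical kinase RIOK3 by 0.51 ± 0.054 and PTPN2, a phosphatase of JAK and STAT proteins, by 0.40 ± 0.062. IMPACT, an inhibitor of the stress kinase GCN2, passed at -0.14 ± 0.067 while its groups overlapped. CABLES1, an adaptor of cyclin-dependent kinases, had 37.5, 36.6 and 34.3 CPM against 6.54, 5.97 and 7.06 CPM. PTPRM, a receptor phosphatase of cell contacts, had 129.5, 128.2 and 128.9 CPM against 76.7, 74.9 and 81.7 CPM. Both were higher in all RN7SK-KO libraries, by 5.54-fold for CABLES1 (log2 fold change 2.47 ± 0.090) and 1.66-fold for PTPRM (0.73 ± 0.050). CABLES1 lies on the q arm, and the other 4 members that rose lie on the p arm.

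Of 8 genes of metabolism, redox and transport, 5 were lower, 1 was higher and 2 did not pass (median -0.45). ME2, the mitochondrial malic enzyme, and ACAA2, a thiolase of fatty acid oxidation, fell by 1.11 ± 0.053 and 0.99 ± 0.052. TXNL1, a thioredoxin-like protein of the proteasome, and IMPA2, an inositol phosphatase, fell by 0.56 ± 0.052 and 0.34 ± 0.060, and SLC39A6, counted here, by 0.92. The lipase gene ABHD3 was at -0.11 ± 0.071. With the offset, TXNL1 came to -2.33 (7696 bases in RN7SK-KO, 2344 in control), ME2 to -2.13 and ACAA2 to -1.64. ENOSF1, of the enolase superfamily, had 65.4, 64.7 and 64.5 CPM against 57.3, 51.2 and 53.0 CPM and rose by 0.27 ± 0.057. GALNT1, which starts mucin-type O-glycans, had 117.1, 113.4 and 116.9 CPM against 112.0, 111.0 and 104.0 CPM, at 0.09 ± 0.049. Both turned negative with the offset, -0.27 and -0.26. ENOSF1 overlaps TYMS, the thymidylate synthase gene on the other strand, which is no member and fell by 1.35 ± 0.045.

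In all, 6 of 58 members had another sign with the length offset than from counts: ENOSF1, ANKRD12, VAPA, CEP76, GALNT1 and CXXC1. With the offset, 47 members passed as lower and 6 as higher, and the median was -0.88. The shares over all genes are not given for that fit, so nothing is read from its counts. The range of member medians over the 10 Mb windows widened to 1.27, against 0.69 from counts. The member median thus stayed negative on both scales. The size for single genes, most of all DSC2, SNRPD1, TXNL1 and ME2, depended on the scale. Which gene models were used goes with the group, so their effect on the reads counted and that of the group cannot be told apart.

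**Figure D5:**
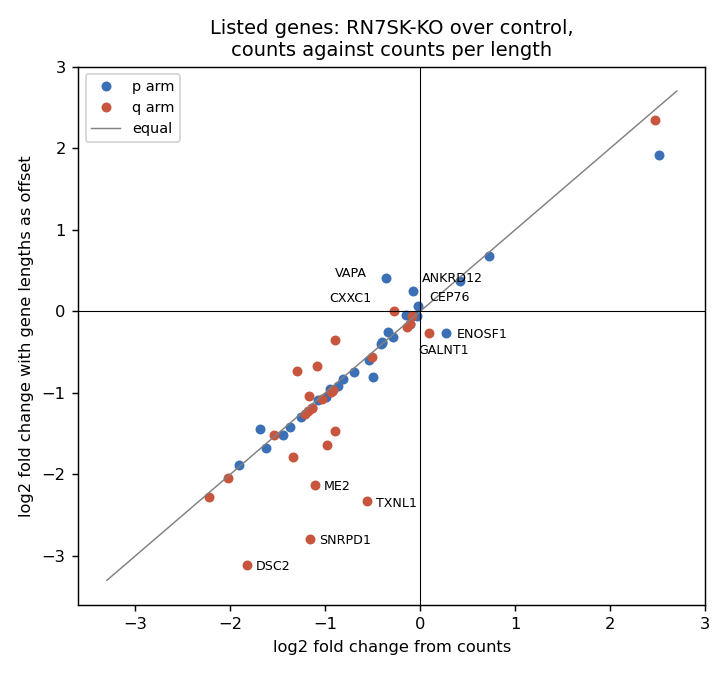
Log2 fold change (RN7SK-KO over control) of the 58 tested members from counts (x axis) and with the recovered gene lengths as an offset (y axis), by arm. Most points lie near the line of equal values; SNRPD1, TXNL1, DSC2 and ME2 lie far below it, and VAPA, ANKRD12, CEP76 and, barely, CXXC1 lie above 0 with the offset only.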

How the data were processed

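For each of the 6 libraries the authors deposited whole-number read counts per gene symbol, not normalized, and FPKM values, per the file headers and values. Trimming with Trimmomatic 0.36, quality checks with FastQC 0.11.5 and alignment with HISAT2 2.2.1.0 to GRCh38 are taken from tool names in the submitters' processing notes. How genes were counted, with which annotation and strand setting, and how the genes in the tables were chosen, is not given in the sources used here. The labels do not say whether replicates are separate cultures, so the spread may be technical.

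Of 16779 genes, 16717 were placed with RefSeq's table of GRCh38.p14. Counts were fitted in R 4.3.3 with edgeR 4.0.16 (filterByExpr, TMM factors, robust quasi-likelihood test, two-sided, 12929 genes). The CPM given are scaled by the same factors, 0.9885 to 1.015. On simulated counts for 12929 genes, 66, 65 and 66 genes were changed by 2, 1 and 0.5 log2 units. The test called 100%, 95.4% and 83.3% of them, and 5.18% of its calls were false. In the libraries 85.0% of tested genes passed, so the simulation does not cover a change as broad as that. Chi-square per degree of freedom between libraries of a group was 1.74 to 8.3, so none were duplicates. The lengths behind FPKM were recovered as whole numbers of bases, within 0.02, and used as an edgeR offset. The members, role groups and alternatives were chosen with earlier results of these data known. Values in every library are given by rule for the 8 members with the lowest log2 fold changes, the 8 highest above 0 (6 were), the 6 nearest 0 and 2 paralog pairs, and after their values were seen for ROCK1, LMAN1, SNRPD1, SLC39A6, ELP2 and PSMG2. Other tools were DESeq2 1.42.0, limma 3.58.1 and Python 3.11.15.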

Additional observations from a re-analysis of the deposited data

How the results depend on the processing

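The member median stayed negative and the q arm lower than the p arm under each alternative run. Median log2 fold change of the members: -0.81 with upper quartile scaling, -0.81 with a filter at 10 CPM on average, -0.79 on log2(FPKM + 0.1) and -0.72 on log2(FPKM + 1), and -0.92 to -0.87 leaving out each library. Difference of the arm medians (p minus q): 0.24 for members with recovered lengths within 1%, 0.50 over all tested chromosome 18 genes, 0.49 over those averaging at least 10 CPM (chosen after seeing the data), and 0.53 to 0.65 leaving out each library. Range of window medians: 1.26 and 1.19 on the 2 FPKM scales, 1.27 with lengths as offset, 0.49 for members with lengths within 1%, and 1.18 over all tested chromosome 18 genes or those with at least 10 CPM. Members lower and higher were 16 and 2 among the 20 with lengths within 1%, since fewer genes enter, and 22 and 2 at 2-fold. Of the 6 members that turned with the offset, these are given on log2(FPKM + 0.1), on log2(FPKM + 1) and with the offset, in that order: ENOSF1 (-0.18, -0.17, -0.27), GALNT1 (-0.18, -0.17, -0.26) and ANKRD12 (0.31, 0.24, 0.24); the cause beyond the lengths was not tested. With the replicate block, 44 members were lower and 5 higher and the median was -0.90. Shares over all genes are not given for that fit, nor for genes with lengths within 1%. Nothing is read from either pair of counts. Replicate numbers did not pair the libraries: same-numbered ones correlated at 0.018, -0.0248 and -0.00775 in their deviations from the group means. At 16018260 or more counts per library, EPB41L3 had too few counts to be tested. EMILIN2 had an SE of 0.203, beside a median SE of 0.06 over the tested members. The part of depth in either was not tested.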

Other observations

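The genes of chromosome 18 outside the list with the largest fold changes in each direction, among those averaging at least 5 CPM, were as follows. DSC3, a desmocollin gene beside DSC2, had 8.85 ± 0.694 CPM in RN7SK-KO and 140.5 ± 7.16 CPM in control libraries (SD, n = 3 each), a log2 fold change of -3.99 ± 0.071, and the other desmosomal cadherins of the list, DSC2 and DSG2, were lower too. DSEL, an epimerase-like enzyme of dermatan sulfate, was at -2.96 ± 0.091 and C18orf54 at -2.88 ± 0.073. Also lower were PARD6G, a cell polarity protein gene, at -2.42 ± 0.156, and the apoptosis inhibitor BCL2, which had 4.86 ± 0.176 CPM in RN7SK-KO against 23.4 ± 0.517 CPM in control libraries. Higher were SETBP1 (log2 fold change 4.89 ± 0.212), GNAL, a G protein subunit gene (3.30 ± 0.130), the transcription factor TCF4 (2.42 ± 0.150), KCTD1 (1.27 ± 0.059) and RAB27B, a GTPase of secretion (1.24 ± 0.051).

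Well known genes of the chromosome went in several directions. Of the SMAD mediators of TGF-beta signalling, SMAD4 was at -0.62 ± 0.054, SMAD2 at -0.13 ± 0.048 and the inhibitory SMAD7 at 0.14 ± 0.077, which did not pass. SMAD2 came to -1.41 with the length offset, with recovered lengths of 41648 bases in RN7SK-KO and 17883 in control. N-cadherin, CDH2, was at 0.34 ± 0.054, the lung and gut transcription factor GATA6 at 0.31 ± 0.130 and the laminin subunit LAMA3 at 0.13 ± 0.062, which did not pass.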
